A study of Mus musculus with 24 samples.

Results

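The genes described here are 33 mouse genes of cholesterol synthesis and of its control by SREBP, the sterol regulatory element-binding proteins, taken by symbol from a list and kept where at least 1 FPKM was reached in at least 4 of the 24 libraries. FPKM is the number of sequenced fragments of a gene divided by the gene's length and by the depth of the library. All 33 listed genes passed, of 13039 genes that passed among 18892 in the table. The filter asks little of them, since 32 of the 33 reached 1 FPKM in all 24 libraries and Idi2 in 8. By role, 2 genes supply acetyl-CoA, 9 carry the early steps from acetyl-CoA to isoprenoids, 11 carry the steps from squalene synthesis to cholesterol, 7 encode SREBP and its regulators, and 4 belong to sterol transport and to the oxysterol receptors called LXR.

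Polyadenylated RNA was measured in whole skin of 24 mice, 1 library per mouse, with 4 mice in each of 6 groups. Control mice had saline injected every day and solvent on the skin. Model mice had dihydrotestosterone (DHT, the androgen used to impair hair growth in mice) injected every day with solvent on the skin. Treatment mice had the same DHT injections, and an extract of HLX (the Hanlianxiang formula) was spread on their skin. Each treatment was sampled at day 10 and at day 15 from different animals, which had been assigned at random. No group analysed here received the extract without DHT, so each effect of the extract is one measured on DHT-injected skin. Doses, strain, age, skin site and hair cycle stage are not given in the sources used here. In whole skin, fewer cells of a type and less RNA per cell cannot be told apart.

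Cholesterol is built from acetyl-CoA through mevalonate, which is turned into isoprenoid diphosphates, then into squalene and, after ring closure, into sterols. SREBP2, encoded by Srebf2, is held in the endoplasmic reticulum by the escort protein Scap and the Insig proteins when sterols are plentiful. When sterols fall, Scap carries it to the Golgi, where the proteases encoded by Mbtps1 and Mbtps2 release its active fragment, and most enzymes of the pathway are among its targets. LXR works in the opposite direction, since oxysterols activate it and its targets Abca1 and Abcg1 export cholesterol. Skin makes cholesterol in the epidermis, where it is a lipid of the permeability barrier, and in sebaceous glands, and inherited defects of several enzymes of the sterol steps affect skin or hair.

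Start-site windows of 28 of the 33 genes could be matched by symbol in a RefSeq table of build GRCm38.p6, 36 windows in all, each with 250 bases before and 50 bases after a transcription start. Fdps, Fdft1, Sqle, Stard4 and Abcg1 had no window. The 250 bases before the start of 6 genes are printed as examples. Mvk, Mvd, Nsdhl and Srebf2 were higher in treatment than in model skin at day 15, Idi2 was lower in model than in control skin at day 15, and Hmgcs1 is the gene whose window holds the SREBP element searched for. Capitals mark motifs found by their letters on either strand: the SREBP element TCACNCCAC, the NF-Y box CCAAT, and the GC box, whose letters are GGGCGG. No marked motif overlaps another of a different kind in these stretches. The Hmgcs1 stretch lies at chr13:119690101-119690350 on the plus strand, Mvk at chr5:114444019-114444268 (plus), Mvd at chr8:122443423-122443672 (minus), Nsdhl at chrX:72918271-72918520 (plus), Srebf2 at chr15:82147019-82147268 (plus) and Idi2 at chr13:8952613-8952862 (plus).
Hmgcs1: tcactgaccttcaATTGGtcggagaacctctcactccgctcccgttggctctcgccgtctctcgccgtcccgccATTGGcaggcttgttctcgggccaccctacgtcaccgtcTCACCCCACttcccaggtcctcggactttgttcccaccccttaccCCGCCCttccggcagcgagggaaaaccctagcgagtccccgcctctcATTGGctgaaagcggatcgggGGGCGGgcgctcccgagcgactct
Mvk: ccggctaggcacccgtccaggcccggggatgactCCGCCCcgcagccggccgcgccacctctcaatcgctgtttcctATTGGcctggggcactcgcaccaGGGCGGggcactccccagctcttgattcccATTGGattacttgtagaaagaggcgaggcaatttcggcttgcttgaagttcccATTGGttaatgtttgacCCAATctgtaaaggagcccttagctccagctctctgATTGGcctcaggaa
Mvd: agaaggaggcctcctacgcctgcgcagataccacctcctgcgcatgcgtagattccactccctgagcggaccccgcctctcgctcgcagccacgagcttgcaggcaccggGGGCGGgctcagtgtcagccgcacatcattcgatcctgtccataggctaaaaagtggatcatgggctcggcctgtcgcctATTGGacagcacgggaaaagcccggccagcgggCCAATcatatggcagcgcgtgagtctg
Nsdhl: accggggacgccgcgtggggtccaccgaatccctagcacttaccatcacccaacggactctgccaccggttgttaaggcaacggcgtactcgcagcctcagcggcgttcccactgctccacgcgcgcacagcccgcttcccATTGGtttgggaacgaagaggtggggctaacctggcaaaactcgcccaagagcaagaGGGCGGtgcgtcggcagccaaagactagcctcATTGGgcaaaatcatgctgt
Srebf2: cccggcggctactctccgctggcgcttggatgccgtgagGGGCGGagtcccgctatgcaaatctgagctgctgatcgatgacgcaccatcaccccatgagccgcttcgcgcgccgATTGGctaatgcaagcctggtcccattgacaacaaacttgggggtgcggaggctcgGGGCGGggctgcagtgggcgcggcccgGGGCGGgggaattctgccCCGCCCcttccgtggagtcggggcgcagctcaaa
Idi2: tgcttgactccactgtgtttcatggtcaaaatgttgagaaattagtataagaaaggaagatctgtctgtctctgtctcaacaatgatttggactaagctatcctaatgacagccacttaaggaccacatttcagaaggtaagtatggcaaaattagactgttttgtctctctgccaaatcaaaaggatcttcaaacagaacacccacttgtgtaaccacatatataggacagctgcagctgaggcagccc

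The SREBP element occurs in 1 of the 36 windows (2.8%), 137 to 129 bases before the start of Hmgcs1, and in 1.2% of all 32851 windows of the table. The NF-Y box occurs in 22 of the 36 windows (61.1%, against 37.4% of all windows) and the GC box in 27 (75.0%, against 35.7%). The E-box CACGTG, which SREBP proteins can also bind, occurs in 7 windows of 6 genes (19.4%, against 7.2%), namely Hsd17b7, Sc5d, Dhcr7, Insig1, Scap and Abca1. In the stretches printed, Mvk holds 5 NF-Y boxes and Mvd 2, while Idi2 holds no marked motif. Acat2 and Scap, also higher in treatment than in model skin at day 15, have windows that are not printed. Those windows hold GC boxes but no NF-Y box. Hmgcs1, which was not called in any comparison, holds NF-Y and GC boxes beside the SREBP element. These are matches of exact letters in a window of fixed length, and no binding was measured. A stretch 1 letter away from the SREBP element, such as tcaccccat before the Srebf2 start, is not counted.

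Reads recovered from the steps between FPKM values came to between 37048896 and 41117262 per library as the smallest whole numbers that give the table, so the depth differed little between libraries. The genes described here had between 6 reads (Idi2 in 1 model library of day 15) and 26465 reads (Hmgcs1 in 1 control library of day 10) per library. Basal keratinocyte markers (Krt5, Krt14, Col17a1, Itgb4 and Itga6) summed to between 636 and 1460 FPKM in every library, so the labelled tissue is matched by these defining genes. Some libraries stand apart. A list of 10 kidney genes summed to between 18.8 and 31.3 FPKM in all 8 control and model libraries of day 10 and to at most 0.193 in the other 16, where Kap and Umod are listed at 0. The kidney signal and the group cannot be told apart in comparisons of those 8 libraries with treatment skin of day 10 or with day 15, and it is at or near 0 in all 3 groups of day 15. A list of 4 Y-linked genes summed to 22.3, 22.3 and 33.4 FPKM in treatment replicates 1, 2 and 4 of day 15 and to 28.3 in treatment replicate 3 of day 10, against 39.2 to 50.6 in the other 20 libraries. Correlations between libraries of a group, across genes, were lowest in the treatment (0.9283) and model groups (0.9428) of day 15.

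On the FPKM scale, which is per length, the genes spanned more than 100 FPKM. In control skin of day 10 the highest mean levels were those of Hmgcs1, which makes the precursor of mevalonate (141 ± 23 FPKM, SD, n = 4), Msmo1, a methylsterol oxidase (97.4 ± 3.59), and Fdps, which makes farnesyl diphosphate, the branch point to sterols and to other isoprenoids (89.8 ± 7.67). Among the regulators Insig1 was highest (71.7 ± 4.87), followed by Mbtps1 (31.7 ± 1.32), Srebf2 (26.5 ± 1.64) and Insig2 (24.8 ± 3.73), and Srebf2 and Insig2 overlapped. Srebf1, whose products act mainly on fatty acid genes, had 13.8 ± 1.03 FPKM and Scap 13.7 ± 0.102, which do not differ beyond their spread. The lowest were Tm7sf2, a sterol reductase (4.49 ± 0.329), and Idi2 (1.46 ± 1.96). Idi2 is a paralog of Idi1, the isomerase of isopentenyl diphosphate, and how reads that match both were counted is not given in the sources used here.

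**Figure D1:**
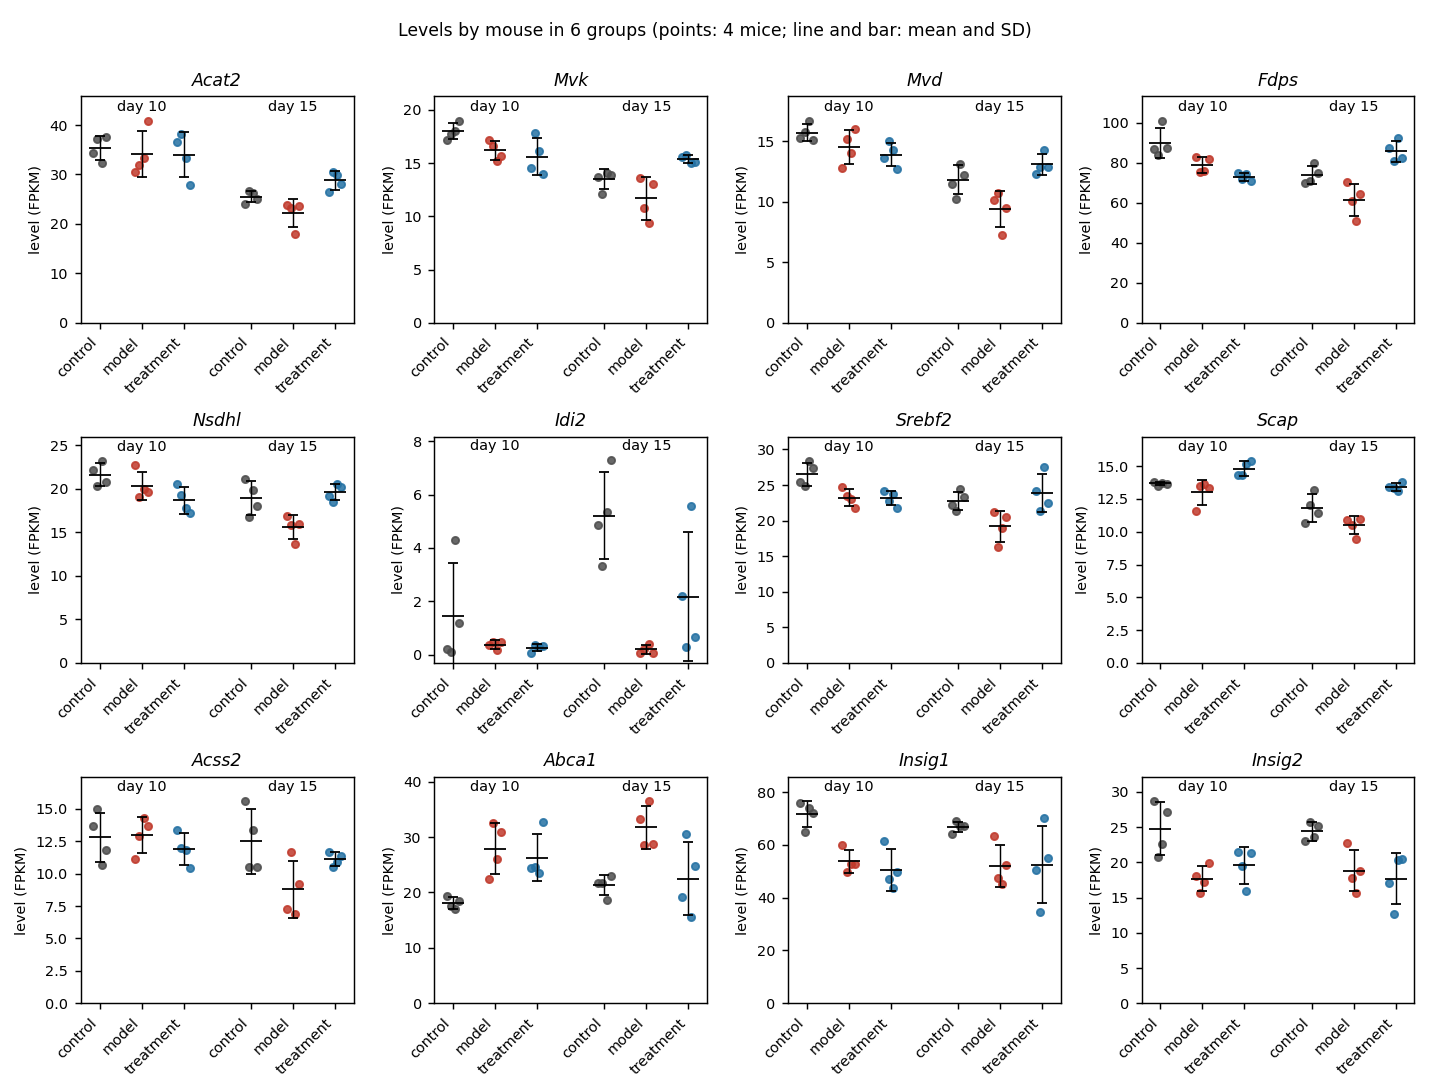
Levels in FPKM (vertical axes, starting near 0) of 12 genes in control (grey), model (red) and treatment skin (blue) at day 10 and day 15; points are mice, and lines and bars are the mean and SD of 4 mice. Fdps, Mvd and Nsdhl are lowest in model skin of day 15, while Abca1 is highest there.

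The effect of DHT injection is addressed by model against control skin, first at day 10. Abca1, the transporter that loads cholesterol onto apolipoproteins, was higher in model skin, and Insig2, which retains Scap in the endoplasmic reticulum, was lower. These were the only calls among the 33 genes, where a call is an adjusted p under 0.05 in the limma fit over all 13039 genes. They make 3.03% higher and 3.03% lower, against 6.79% higher and 7.04% lower among all genes tested, so the count of calls was not above the background of this comparison.

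Abca1 had 19.4, 17.6, 17 and 18.5 FPKM in control replicates 1 to 4 of day 10 and 22.5, 32.5, 26 and 30.9 in model replicates 1 to 4. All model mice were above all control mice, with a log2 difference of 0.59 on the log2(FPKM + 1) scale (SE 0.15, adjusted p = 0.0192). The call ended without control replicate 3, model replicate 2 or model replicate 4, with adjusted p of at most 0.0713. Insig2 had 28.7, 20.8, 22.6 and 27.1 FPKM in control and 18, 15.6, 17.2 and 19.9 in model skin, again without overlap (log2 difference -0.46, SE 0.14, adjusted p = 0.0315). That call was lost when control replicate 1, 3 or 4 or model replicate 2 or 3 was left out (highest adjusted p 0.1). Scaling every library to 1 common total ended it too, and then 1 gene was called higher and 0 lower.

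The remaining 31 genes were not called at day 10, and 8 of the 33 had an unadjusted p under 0.05, 4 in each direction. Insig1, itself an SREBP target that retains Scap, went from 76, 64.7, 73.8 and 72.1 FPKM in control to 59.9, 49.8, 52.7 and 52.9 in model skin without overlap (log2 difference -0.41, SE 0.15, adjusted p = 0.0681). Srebf2 had a log2 difference of -0.18 (SE 0.08, adjusted p = 0.118), and its groups did not overlap either. Within the sterol steps the largest differences were positive, at 0.49 for Hsd17b7, a ketosteroid reductase (SE 0.17, adjusted p = 0.0609), and 0.33 for Cyp51, the lanosterol demethylase (SE 0.12, adjusted p = 0.0706), with overlap. In the early steps 8 of 9 differences were below 0, Hmgcs1 at -0.27 (SE 0.16) among them. The median over the 33 genes was -0.03, beside -0.02 over all genes. Hair shaft keratins (7 of 8) were lower in the same comparison, with sums of 3488 to 6159 FPKM in control and 1538 to 3813 in model skin. Lower too were 3 of the 4 kidney genes tested and Tgm1, the only call among 6 genes of differentiating keratinocytes. The median of those 6 genes was 0.24, with sums of 578 to 1201 FPKM in control and 656 to 1492 in model skin. The part of these lists in these values was not tested.

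At day 15 the same comparison gave 5 lower genes and 1 higher gene. Idi2, Acss2, Mvd, Fdps and Nsdhl were lower in model skin, Abca1 was higher, and 27 genes were not called. That is 15.2% lower and 3.03% higher, against 6.56% lower and 4.23% higher among all genes tested. Differences were below 0 for 28 of the 33 genes, including all 9 early-step genes, both acetyl-CoA genes and all 7 regulators, and the median was -0.20 beside -0.03 over all genes. Of 15 genes with an unadjusted p under 0.05, 14 were lower, and the share of all genes under that p is not given here. With a common total per library 2 were called lower and 1 higher.

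Idi2 had the largest difference. Control mice had 4.86, 3.33, 5.36 and 7.29 FPKM and model mice 0.0706, 0.24, 0.425 and 0.0904 (log2 difference -2.34, SE 0.42, adjusted p = 0.00496). The lowest control mouse was above the highest model mouse, and the call was kept without each single library (adjusted p up to 0.0242). The size depends on the pseudocount, since the model levels are low: over the alternatives and the fits without 1 library it ran from -4.9 to -2.18. The other 4 lower genes differed by less than 0.5 on the log2 scale and their groups overlapped.

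Fdps had 69.6, 70.9, 80 and 74.9 FPKM in control and 70.1, 60.7, 50.9 and 64.3 in model skin of day 15. Model replicate 1 lay within the control range and the other 3 below it (log2 difference -0.27, SE 0.08, adjusted p = 0.0387). Mvd, which makes isopentenyl diphosphate, had 11.5, 10.2, 13.1 and 12.2 FPKM in control and 10.1, 10.7, 7.28 and 9.49 in model skin (log2 difference -0.30, SE 0.09, adjusted p = 0.0453). Model replicate 2 overlapped the control range. Nsdhl, a sterol dehydrogenase on the X chromosome, had 21.1, 16.7, 19.9 and 18 FPKM in control and 16.9, 15.8, 13.7 and 16 in model skin (log2 difference -0.26, SE 0.08, adjusted p = 0.0394). Acss2, which makes acetyl-CoA from acetate, had 15.6, 10.5, 13.4 and 10.5 FPKM in control and 7.3, 11.7, 6.9 and 9.19 in model skin (log2 difference -0.47, SE 0.14, adjusted p = 0.0361). In each of these 3 genes 1 model mouse reached into the control range.

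Abca1 had 21.7, 21.7, 18.7 and 23 FPKM in control and 33.3, 28.5, 36.5 and 28.8 in model skin of day 15. The groups did not overlap (log2 difference 0.55, SE 0.15, adjusted p = 0.0307). As at day 10, markers of macrophages, which express Abca1, were higher in the same comparison: 8 of 8 were called at day 10 (sums of 313 to 413 FPKM in control and 736 to 1056 in model skin) and 2 of 8, Mrc1 and Cd163, at day 15 (466 to 786 and 892 to 1421). Fibroblast genes moved with Abca1 as well, with 2 of 6 called higher at each day (Dcn and Col3a1). Their sums did not overlap either, at 4071 to 6232 FPKM in control and 7070 to 10812 in model skin of day 10, and 4717 to 5792 and 7358 to 13970 at day 15. The part of either cell type in the Abca1 difference was not tested. Abcg1, the other exporter, had log2 differences of 0.12 at day 10 and 0.05 at day 15 (SE 0.14 each) and was not called. Nr1h2, which encodes an LXR protein, had 0.01 at day 10 and 0.00 at day 15 (SE 0.06 each).

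Among the regulators none of the 7 was called at day 15, and 4 had an unadjusted p under 0.05, all lower. Srebf2 had 22.2, 21.4, 24.4 and 23.3 FPKM in control and 21.2, 16.3, 19 and 20.5 in model skin, with no overlap and an adjusted p of 0.0532 (log2 difference -0.24, SE 0.08). Insig1 and Insig2 both differed by -0.37 without overlap (SE 0.15 and 0.14, adjusted p = 0.102 and 0.077). Scap differed by -0.16 (SE 0.06, adjusted p = 0.0902), while Srebf1 was at -0.02 (SE 0.11). In the sterol steps Sqle, the epoxidase that opens this branch to oxygen, had a log2 difference of -0.38 (SE 0.14, adjusted p = 0.0768) with overlap, and Cyp51 one of -0.02 (SE 0.12). Hmgcs1 (-0.32, SE 0.16) and Idi1 (-0.18, SE 0.15) were not called.

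**Figure D2:**
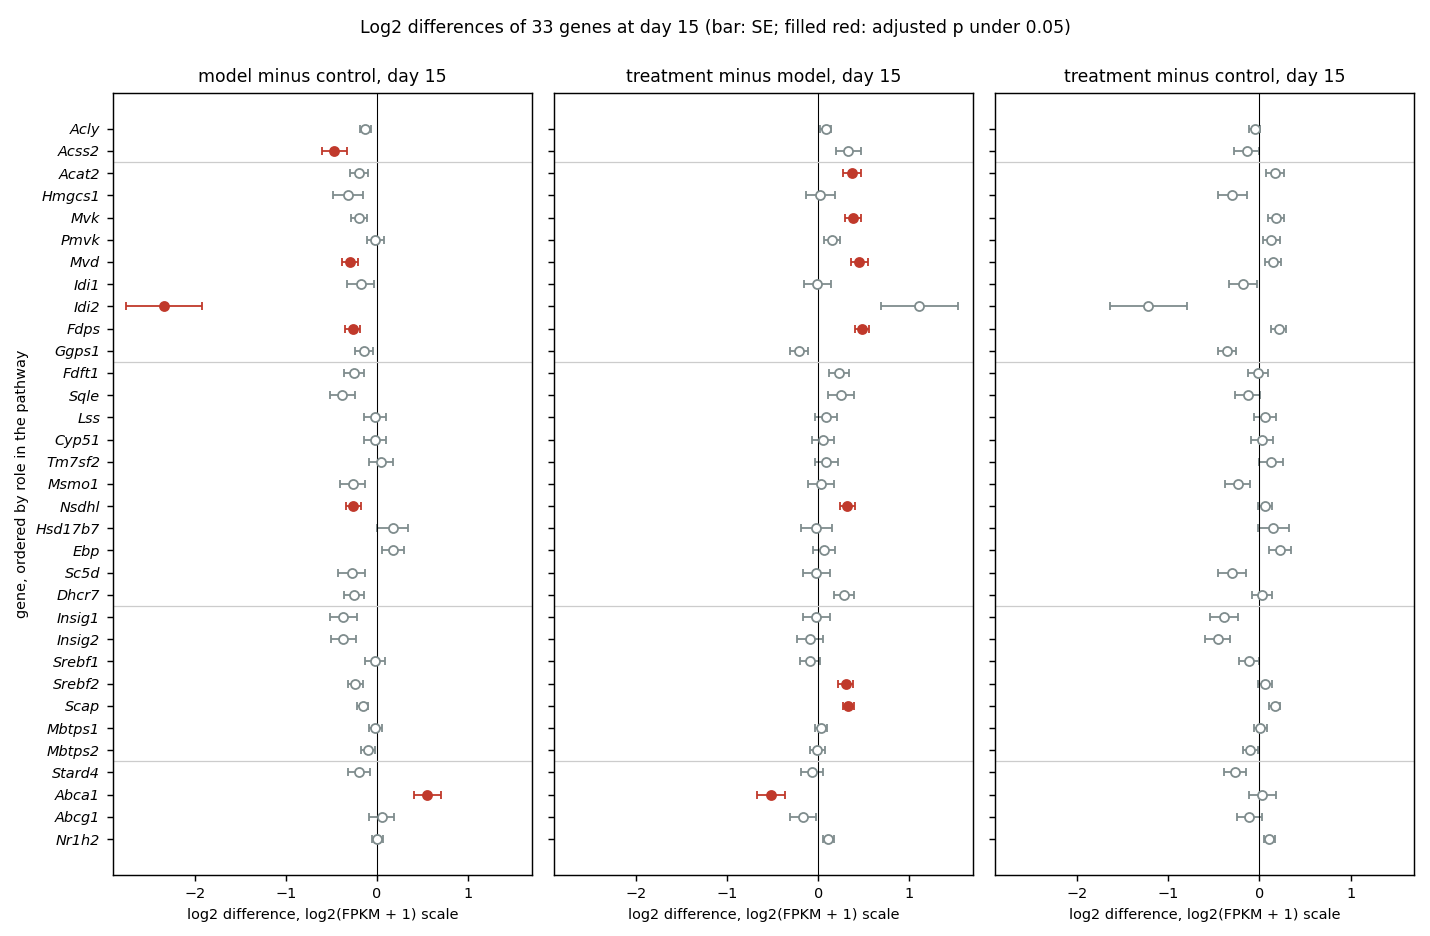
Log2 differences with SE (horizontal axes, log2(FPKM + 1) scale) of the 33 genes at day 15 for model minus control, treatment minus model and treatment minus control; genes run down the vertical axis by role, and filled red points have an adjusted p under 0.05. In the first panel 5 filled points lie left of 0 and 1 right of it, in the second 1 left and 7 right, and the third has none.

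The lower levels of model skin at day 15 were carried unequally by the 4 mice. Over the 19 enzymes of the early and sterol steps other than Idi2, the mean log2 difference from the control mean of the day was -0.43 in model replicate 3, against -0.10 in replicate 2, -0.09 in replicate 4 and 0.00 in replicate 1. Model replicate 3 was the lowest of its group for 17 of the 19 enzymes and lay below every control mouse for 17. The treatment mice of day 15 were spread from -0.17 (replicate 2) to 0.13 (replicate 3), and the control mice from -0.05 to 0.09. At day 10 the 12 mice lay between -0.14 and 0.14. These means come from FPKM without further scaling. A size factor, the median ratio of a library's genes to their geometric mean over the 24 libraries, was lowest in model replicate 3 (0.898). It was 0.9545 to 0.9971 in the other model mice of day 15 and 0.9696 to 0.9974 in the controls. Treatment replicates 2 and 3 had 0.9212 and 1.0141. The part of this library-wide scale in the enzyme means was not tested.

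Leaving out single libraries moved the count of 6 called genes at day 15 to 1 without control replicate 3, control replicate 4 or model replicate 3, to 3 without model replicate 2 and to 12 without model replicate 1. Fdps, Mvd, Nsdhl, Acss2 and Abca1 each lost their call in at least 5 of 8 such fits (adjusted p up to 0.159). In the fit of only these 2 groups 2 genes were called. Markers of basal keratinocytes moved with the result: 2 of 5, Krt5 and Krt14, were lower in model skin, and the sums were 1305 to 1460 FPKM in control and 1104, 866, 636 and 942 in model replicates 1 to 4, with replicate 3 lowest. Of 8 sebocyte genes 2 had an unadjusted p under 0.05 and 0 were called by limma, with sums of 151 to 189 FPKM in control and 147, 200, 95.5 and 153 in model skin. Hair shaft keratins, 2 of 8, were lower too (4428 to 5379 FPKM in control and 2336 to 3892 in model skin), as were Tgm1 and Ivl of 6 genes of differentiating keratinocytes (468 to 572 and 287 to 698). The part of these cell types in the result was not tested.

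**Figure D3:**
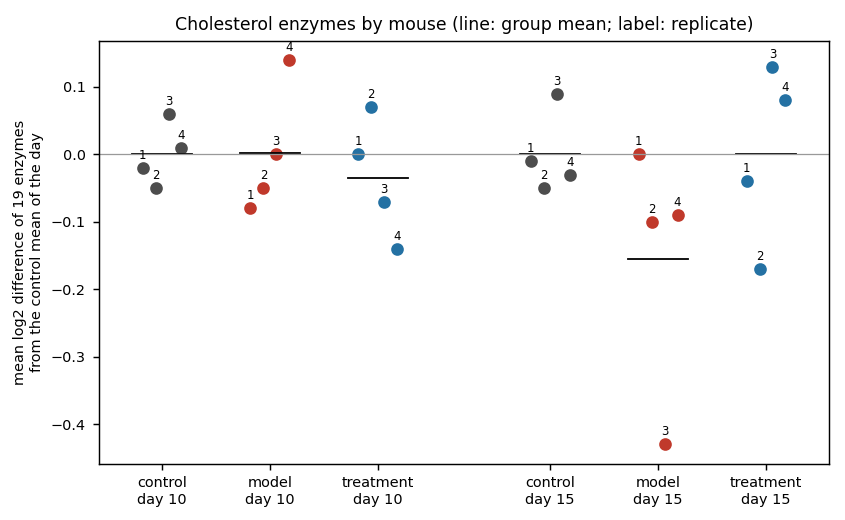
Mean log2 difference of 19 cholesterol enzymes from the control mean of the same day (vertical axis) for each of 24 mice, by group; points are mice labelled with their replicate number and lines are group means. Model replicate 3 of day 15 lies at -0.43, below the other 23 mice, which lie between -0.17 and 0.14. The FPKM values entered without further scaling between libraries.

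Treatment against model at day 10 asks what the topical extract changed on DHT-injected skin. None of the 33 genes was called by limma (1 at an unadjusted p under 0.05) or by voom on the recovered reads (0 called, 2 at such a p), and 0.192% of all genes were called in either direction. The smallest adjusted p was that of Scap (log2 difference 0.18, SE 0.06, adjusted p = 0.279), with 11.6, 13.5, 13.6 and 13.3 FPKM in model and 14.3, 14.3, 15.2 and 15.4 in treatment skin, without overlap. The kidney genes were called lower in this comparison in 4 of the 4 that could be tested.

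By day 15 the extract group stood above the model group in 7 of the 33 genes and below it in 1. Higher in treatment skin were 4 early-step genes (Acat2, Mvk, Mvd and Fdps), 1 gene of the sterol steps (Nsdhl) and 2 regulators (Srebf2 and Scap), and Abca1 was lower. In percent, 21.2% were higher and 3.03% lower, against 10.3% and 9.32% among all genes tested. The median of the 9 early-step genes was 0.37 and that of the 11 sterol-step genes 0.08, beside -0.02 over all genes, and a difference between both classes was not tested. The same 4 model mice enter this comparison and that of model with control at day 15, so an unusual value in a model mouse acts on both, in opposite directions.

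Among the early enzymes, Fdps had 70.1, 60.7, 50.9 and 64.3 FPKM in model and 87.5, 80.7, 92.2 and 82.1 in treatment skin (log2 difference 0.48, SE 0.08, adjusted p = 0.00106). The lowest treatment mouse was above the highest model mouse. Mvd had 10.1, 10.7, 7.28 and 9.49 FPKM in model and 12.3, 12.9, 14.3 and 12.9 in treatment skin (log2 difference 0.45, SE 0.09, adjusted p = 0.0038). Mvk, the mevalonate kinase, had 13.6, 10.8, 9.33 and 13 FPKM in model and 15.6, 15.8, 15 and 15.1 in treatment skin (log2 difference 0.38, SE 0.09, adjusted p = 0.00713). Neither gene overlapped between the groups, and the 4 treatment mice lay within 0.8 FPKM of each other for Mvk. Acat2, the cytosolic thiolase that opens the pathway, had 23.8, 23.3, 18 and 23.6 FPKM in model and 26.5, 30.6, 29.9 and 28.1 in treatment skin (log2 difference 0.37, SE 0.10, adjusted p = 0.0166), without overlap. Its call ended without model replicate 3, the lowest mouse (adjusted p = 0.062).

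The other 5 early-step genes were not called. Hmgcs1 had 102, 76.3, 63.1 and 88.2 FPKM in model and 70.3, 61.3, 121 and 88 in treatment skin, a log2 difference of 0.02 with a 95% interval from -0.32 to 0.36. Idi1 differed by -0.01 (interval -0.31 to 0.30), with 25.3, 23, 17.6 and 23.3 FPKM in model and 19.8, 16, 30.1 and 24.4 in treatment skin. In both genes treatment replicate 3 was the highest and replicate 2 the lowest of the group, and the treatment mice spanned the whole model range. Idi2 was above 2 FPKM in 2 treatment mice (2.22, 0.292, 5.56 and 0.654 FPKM) and not called (log2 difference 1.11, SE 0.42, adjusted p = 0.0669).

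In the sterol steps Nsdhl had 16.9, 15.8, 13.7 and 16 FPKM in model and 19.2, 18.5, 20.6 and 20.2 in treatment skin, without overlap (log2 difference 0.32, SE 0.08, adjusted p = 0.00995). The other 10 genes of these steps were not called. Dhcr7, which encodes the last reductase of one route to cholesterol, came nearest (log2 difference 0.28, SE 0.11, adjusted p = 0.0697), Sqle differed by 0.25 (SE 0.14, adjusted p = 0.196) and Cyp51 by 0.05 (SE 0.12), the latter with 41.7, 49.9, 31.8 and 40.4 FPKM in model and 44.8, 34.8, 44.8 and 44.4 in treatment skin.

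Of the regulators, Scap had 10.9, 10.5, 9.46 and 11 FPKM in model and 13.4, 13.3, 13.1 and 13.8 in treatment skin (log2 difference 0.33, SE 0.06, adjusted p = 0.00186). Srebf2 had 21.2, 16.3, 19 and 20.5 FPKM in model and 24.2, 21.4, 27.5 and 22.5 in treatment skin (log2 difference 0.30, SE 0.08, adjusted p = 0.013), and its call ended without model replicate 2 (adjusted p = 0.0511). Both were without overlap. Insig1 differed by -0.02 (interval -0.32 to 0.29), with 63.2, 47.3, 45.2 and 52.4 FPKM in model and 50.3, 34.6, 70.2 and 55 in treatment skin, and Insig2 by -0.09 (interval -0.38 to 0.19). Srebf1 was at -0.09 (interval -0.32 to 0.14). The 5 regulators other than Scap and Srebf2 were not called.

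Abca1 had 33.3, 28.5, 36.5 and 28.8 FPKM in model and 19.1, 30.6, 15.5 and 24.7 in treatment skin of day 15 (log2 difference -0.52, SE 0.15, adjusted p = 0.0241). Treatment replicate 2 lay within the model range, and the call ended without model replicate 3, treatment replicate 1 or treatment replicate 3 (adjusted p up to 0.0871). Treatment replicate 2 also had the highest macrophage sum of its group (796, 1414, 342 and 949 FPKM in replicates 1 to 4) and replicate 3 the lowest, as for Abca1. The fibroblast sums were ordered alike at both ends (7804, 9224, 2742 and 6527 FPKM). Of the 8 macrophage genes Mrc1 and Cd163 were called lower and of the 6 fibroblast genes Dcn and Lum, and the part of either list in the Abca1 difference was not tested.

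The counts of day 15 rest on the spread of all 24 libraries. When only the model and treatment groups of day 15 set the spread, 0 of the 33 genes and 0 of all genes were called by limma (9 of the 33 at an unadjusted p under 0.05), while Fdps kept its log2 difference of 0.48 with an adjusted p of 0.134. Fdps, Mvd and Scap were called in all 8 fits without 1 library and in each other alternative that left more than 1 mouse per group. Without the 3 libraries of lowest array weight (model replicates 2 and 3 and treatment replicate 3 of day 15) 3 genes were called higher and 2 lower. Leaving out the libraries of low Y-linked sum, 1 of the alternatives, leaves only treatment replicate 3 of day 15, the library of lowest array weight (0.168). Acat2 and Mvk lost their call there, and the counts of that fit are not read. Hair shaft keratins, with 8 of 8 called higher in treatment than in model skin, moved with these genes (sums of 2336 to 3892 FPKM in model and 4693 to 6405 in treatment skin), and Y-linked transcripts were lower there, with 2 of 4 called (39.2 to 46.8 and 22.3 to 48.2 FPKM). Tgm1, 1 of 6 genes of differentiating keratinocytes, was higher (287 to 698 and 338 to 695). Of 5 basal keratinocyte genes 0 were called (median log2 difference 0.02), and of 8 sebocyte genes 0 (median -0.08). The part of these lists in the result was not tested.

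Treatment against control asks how far skin that received both DHT and the extract stood from skin that received neither. At day 10 Hsd17b7 and Cyp51 were higher and Stard4, a cytosolic sterol carrier, and Fdps were lower, so 6.06% were called in each direction against 2.2% higher and 1.04% lower among all genes. Hsd17b7 had 18.7, 14.6, 17.4 and 18.5 FPKM in control and 25.7, 31.1, 26.5 and 28.1 in treatment skin (log2 difference 0.66, SE 0.17, adjusted p = 0.0415). Cyp51 had 43.2, 38.3, 48.8 and 45.7 FPKM in control and 61.3, 64.5, 60.3 and 56.3 in treatment skin (log2 difference 0.46, SE 0.12, adjusted p = 0.0442). Stard4 differed by -0.44 (SE 0.12, adjusted p = 0.0429) and Fdps, with 87, 84, 101 and 87.1 against 74.8, 71.8, 74.3 and 70.8 FPKM, by -0.29 (SE 0.08, adjusted p = 0.0476). None of the 4 overlapped between the groups, but 14 of the 33 genes in all did not, most of them not called. The share of all genes without overlap is not given here.

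These 4 calls stand close to the threshold. Each was lost in at least 7 of the 8 fits without 1 library (adjusted p up to 0.163). The count was 0 without any 1 of control replicates 1, 3 and 4 or treatment replicates 2, 3 and 4 of day 10, and 1 without treatment replicate 1. With a common total per library 2 were called higher and 0 lower, and with median-of-ratios scaling 2 higher and 1 lower. Without the library of low Y-linked sum Cyp51, Fdps and Stard4 were not called. The 4 kidney genes tested were all lower in treatment skin here, and 5 of 8 macrophage genes were higher (313 to 413 FPKM in control and 644 to 922 in treatment skin). Their part in the result was not tested. At day 15 no gene was called between treatment and control by limma (7 at an unadjusted p under 0.05) or by voom (8 such), while 0.314% of all genes were called in either direction. The smallest adjusted p was 0.098, for Ggps1, which makes geranylgeranyl diphosphate (log2 difference -0.36, SE 0.10). Fdps was at 0.21 (SE 0.08, adjusted p = 0.154) with every treatment mouse above every control mouse, and Insig2 at -0.46 (SE 0.14, adjusted p = 0.1) with every treatment mouse below. Without treatment replicate 3 of day 15, 1 gene was called higher and 7 lower, and the share of all genes called then is not given here.

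Whether the differences changed between the days was tested directly. For treatment against model, Fdps went from a log2 difference of -0.11 at day 10 to 0.48 at day 15, a change of 0.59 (SE 0.11, adjusted p = 0.0391), and it was 1 of 8 genes called higher among all genes tested (0.0614%, beside 0.0383% lower). No other gene of the 33 was called, and 8 in all had an unadjusted p under 0.05, each with a positive change. Nsdhl (0.43, SE 0.11, adjusted p = 0.119), Mvd (0.50, SE 0.13, adjusted p = 0.119) and Mvk (0.44, SE 0.13, adjusted p = 0.139) came next. The Fdps call ended in 5 of 11 alternatives and without any 1 of 10 libraries: all 4 model mice and treatment replicates 2, 3 and 4 of day 10, and model replicates 2 and 3 and treatment replicate 1 of day 15 (adjusted p up to 0.12). The kidney genes, 4 of 4 tested, also changed in this test. For model against control no gene of the 33 was called by limma or by voom (3 at an unadjusted p under 0.05 in each), and the share among all genes was 0%.

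Day 15 against day 10 compares different mice of the same treatment. In control skin Acat2, Mvk, Mvd and Fdps were lower at day 15, and Idi2 and Abcg1 were higher, so 12.1% were lower and 6.06% higher against 3.33% and 1.48% among all genes tested. Acat2 went from 34.4, 37.1, 32.3 and 37.5 FPKM to 24.1, 26.7, 26.2 and 25.1 (log2 difference -0.45, SE 0.10, adjusted p = 0.0205). Mvk differed by -0.40 (SE 0.09, adjusted p = 0.021) and Mvd by -0.39 (SE 0.09, adjusted p = 0.0253), both without overlap. Idi2 went from 0.24, 0.0946, 4.31 and 1.2 FPKM to 4.86, 3.33, 5.36 and 7.29 with overlap (log2 difference 1.60, SE 0.42, adjusted p = 0.0379). Abcg1 went from 5.25 to 6.75 FPKM at day 10 to 7.28 to 10.7 at day 15 (log2 difference 0.50, SE 0.14, adjusted p = 0.0463).

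The count of 6 in control skin fell to 0 without any 1 of control replicates 2 and 4 of day 10 or control replicates 1, 2 and 4 of day 15, to 2 without replicate 1 of day 10 and to 3 without replicate 3 of day 10. With median-of-ratios scaling 2 were called higher and 2 lower. The Idi2 call ended with a pseudocount of 0.1, in the fit of only both groups and with a replicate block (adjusted p up to 0.0579), and its log2 difference ran from 1.31 to 3.07 over the alternatives and the fits without 1 library. The kidney sum of control skin fell from at least 26.7 FPKM to at most 0.0996 between the days, and in this comparison the kidney signal and the day cannot be told apart. Of 8 sebocyte genes 2 were lower at day 15 (Awat2 and Elovl3; sums of 208 to 293 FPKM at day 10 and 151 to 189 at day 15), as was Flg of 6 genes of differentiating keratinocytes (578 to 1201 and 468 to 572). Of 8 macrophage genes Adgre1 was higher (313 to 413 and 466 to 786). The part of these cell types in the result was not tested.

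Model skin gave the largest count of the 11 comparisons. Between day 10 and day 15, 18 of the 33 genes were lower and 0 higher, 54.5% against 6.85% lower and 1.62% higher among all genes tested. The median was -0.34 beside -0.08 over all genes. The fall covered both acetyl-CoA genes, 6 of 9 early-step genes, 7 of 11 sterol-step genes and 3 of 7 regulators (Scap, Srebf2 and Mbtps1), and none of the 4 transport and LXR genes. Mvd went from 12.8, 15.2, 14 and 16 FPKM to 10.1, 10.7, 7.28 and 9.49 (log2 difference -0.58, SE 0.09, adjusted p = 0.00213). Acat2 went from 30.5, 32, 33.4 and 40.9 to 23.8, 23.3, 18 and 23.6 FPKM (log2 difference -0.60, SE 0.10, adjusted p = 0.00288). Lss, the cyclase that closes the sterol rings, went from 12.8, 13.7, 14.5 and 17.6 to 10.5, 9.64, 6.17 and 9.87 FPKM (log2 difference -0.66, SE 0.12, adjusted p = 0.00627). Mvk (-0.45, SE 0.09) and Acly, the citrate lyase that supplies cytosolic acetyl-CoA (-0.29, SE 0.06), followed, and none of these 5 overlapped between the days. In all 15 of the 33 genes did not overlap. The same number did not in control skin, where fewer were called, and the share of all genes without overlap is not given here.

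The size of that count depended on the libraries and on the scaling. It was 6 without model replicate 3 of day 15, 9 without model replicate 3 or 4 of day 10 and 11 without model replicate 2 of day 10. Median-of-ratios scaling, which moved the median of all genes in this comparison from -0.08 to 0.02, gave 6 lower and 1 higher. When only both model groups set the spread, 0 of the 33 genes were called by limma (24 at an unadjusted p under 0.05). The number of all genes called in that fit is not given here, so a loss particular to these genes is not shown. Without the 3 libraries of lowest array weight the count was 3. Mvd and Acat2 were called in all 11 alternatives but the fit of only both groups, and in all 8 fits without 1 library. Sebocyte markers moved with these genes: 4 of 8 were lower (sums of 181 to 417 FPKM at day 10 and 95.5 to 200 at day 15). Of 6 genes of differentiating keratinocytes 3 were lower (Flg, Krt10 and Krt1; 656 to 1492 and 287 to 698), and of 8 hair shaft keratins 3 were higher (1538 to 3813 and 2336 to 3892). The part of these cell types in the result was not tested. The kidney sum fell from at least 18.8 to at most 0.193 FPKM, and its signal and the day cannot be told apart.

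In extract-treated skin, 5 genes were lower at day 15 and 0 higher, 15.2% against 7.53% lower and 2.11% higher among all genes. Of these, 4 belong to the sterol steps (Hsd17b7, Cyp51, Msmo1 and Lss) and 1, Idi1, to the early steps. Hsd17b7 went from 25.7, 31.1, 26.5 and 28.1 FPKM to 16.2, 13.7, 14.1 and 22.3 (log2 difference -0.74, SE 0.17, adjusted p = 0.0125). Its call was kept in all 8 fits without 1 library and in each alternative that left more than 1 mouse per group. Cyp51 went from 61.3, 64.5, 60.3 and 56.3 to 44.8, 34.8, 44.8 and 44.4 FPKM (log2 difference -0.52, SE 0.12, adjusted p = 0.0131), and Msmo1 from 121, 121, 106 and 103 to 79.6, 58.5, 73.1 and 87.5 FPKM (log2 difference -0.60, SE 0.14, adjusted p = 0.0154). Lss (-0.45, SE 0.12) and Idi1 (-0.53, SE 0.15, with overlap) had an adjusted p of 0.028 each. Fdps, by contrast, had a difference of 0.23 here (SE 0.08, adjusted p = 0.0764), with all mice of day 15 above all mice of day 10.

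The count was 1 without treatment replicate 2 of day 10, 3 without treatment replicate 1 of day 10 or treatment replicates 1 or 2 of day 15, and 8 without treatment replicate 3 of day 15. A common total per library gave 9 lower and 0 higher, and median-of-ratios scaling 5 lower and 1 higher. Leaving out the libraries of low Y-linked sum leaves 1 mouse at day 15, so the counts of that fit are not read. Cyp51, Msmo1, Lss and Idi1 all lost their call there, and the log2 difference of Idi1 was then -0.12. The kidney sum was at most 0.189 FPKM in both groups. Of 8 sebocyte genes 7 were lower at day 15 (sums of 327 to 361 FPKM at day 10 and 107 to 212 at day 15), and so were 4 of 5 basal keratinocyte genes (1219 to 1409 and 850 to 1141), Lum and Dcn of 6 fibroblast genes (7899 to 9419 and 2742 to 9224) and Flg of 6 genes of differentiating keratinocytes (727 to 1090 and 338 to 695). Of 8 hair shaft keratins 4 were higher (2833 to 3455 and 4693 to 6405). The part of these lists in the result was not tested.

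**Figure D4:**
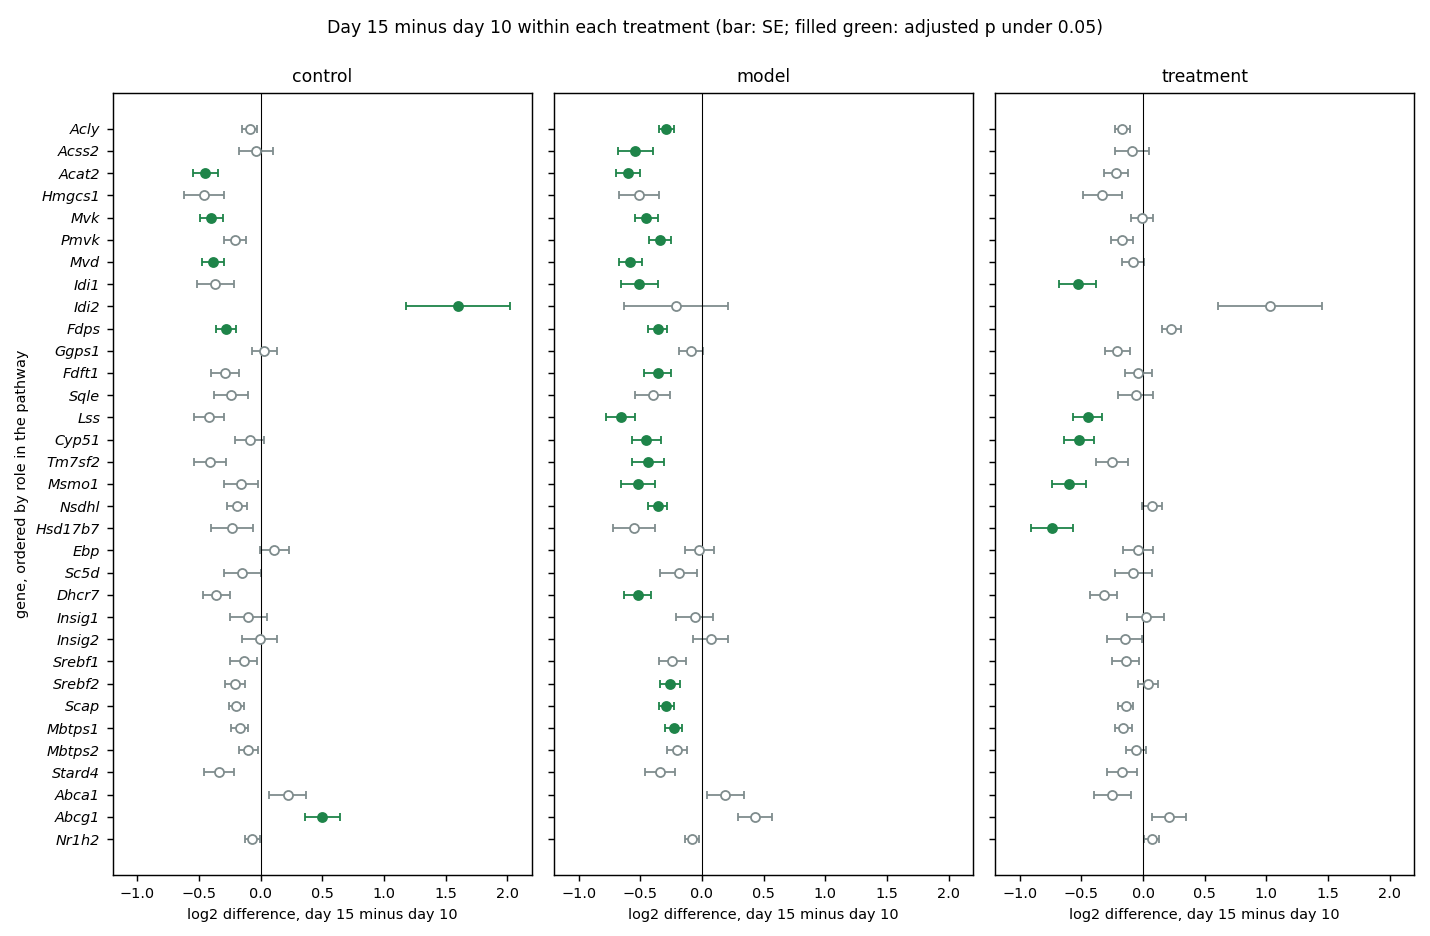
Log2 differences with SE (horizontal axes, day 15 minus day 10) of the 33 genes in control, model and treatment skin; genes run down the vertical axis by role, and filled green points have an adjusted p under 0.05. Filled points left of 0 number 4, 18 and 5, and the 2 filled points right of 0 are Idi2 and Abcg1 in control skin.

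Genes next to the pathway were taken from 3 further lists. Of 16 fatty acid synthesis genes, the neighbouring SREBP pathway, 1 was lower in model than in control skin at day 15 (Me1, log2 difference -0.49, SE 0.13, adjusted p = 0.0252) and 1 higher in treatment than in model skin (Fads2, 0.70, SE 0.19, adjusted p = 0.0137). Each is 6.25% of the list, beside 6.56% lower and 10.3% higher among all genes in these comparisons, so neither count was above the background. The list's medians were -0.18 and 0.18 in these comparisons, beside -0.03 and -0.02 over all genes. Between the days, 4 of the 16 were lower at day 15 in model skin (25%, beside 6.85% of all genes), with Elovl6, a fatty acid elongase, at -1.14 (SE 0.26, adjusted p = 0.0145), Fads2 at -0.74 (SE 0.19), Fads1 at -0.31 (SE 0.09) and Mid1ip1 at -0.29 (SE 0.08). In treatment skin Elovl5 (-0.79, SE 0.15) and Elovl6 (-1.02, SE 0.26) were lower at day 15 (12.5%, beside 7.53%), and in control skin Fads1 was (-0.42, SE 0.09; 6.25%, beside 3.33%). The medians were -0.36, -0.16 and -0.11 in model, treatment and control skin, beside -0.08, -0.06 and -0.07 over all genes. Of 18 genes of sterol handling, 6 were higher (33.3%, beside 6.79% of all genes) and 3 lower (16.7%, beside 7.04%) in model skin at day 10. Those with the smallest p were the lipoprotein receptor gene Vldlr (0.81, SE 0.13, adjusted p = 0.0022), Cyp27a1, a sterol hydroxylase that makes an oxysterol (0.81, SE 0.18), the LXR gene Nr1h3 (0.60, SE 0.17) and Npc2, which carries cholesterol out of lysosomes (0.70, SE 0.21). Lipa and Lrp1 were the others that were higher, and Lpcat3 (-0.28, SE 0.08), Stard5 (-0.29, SE 0.09) and Abcg4 (-0.28, SE 0.09) were lower. Macrophage and fibroblast markers were higher there, and their part in these values was not tested.

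At day 15, Stard3 (0.46, SE 0.12) and Vldlr (0.48, SE 0.13) were higher in model than in control skin (11.1% of the list, beside 4.23% of all genes). Of the 18 genes, 2 were lower (11.1%, beside 6.56%). Lpcat3, an LXR target that remodels phospholipids, was among them (-0.42, SE 0.08, adjusted p = 0.00777). In treatment against model skin of day 15, Lpcat3 was higher (0.40, SE 0.08, adjusted p = 0.00442) and Vldlr (-0.51, SE 0.13) and Stard3 (-0.39, SE 0.12) were lower, and both comparisons use the same model mice. Of the list 11.1% was called in each direction there, close to 10.3% higher and 9.32% lower among all genes. Among 11 genes that use isoprenoids, Pdss1, which builds the side chain of coenzyme Q, was higher in model than in control skin at both days (1.02 and 0.80, SE 0.21 each). It was the only call of that list there (9.09%, beside 6.79% of all genes higher at day 10 and 4.23% at day 15). In treatment against model skin of day 15 Fntb, a farnesyltransferase subunit, was higher (0.36, SE 0.08) and Nus1 and Pggt1b were lower (-0.43, SE 0.11, and -0.55, SE 0.15). That is 9.09% higher and 18.2% lower, beside 10.3% and 9.32% among all genes, so the higher count was not above the background.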

How the data were processed

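The values used are the FPKM that the authors deposited, 1 per gene and library, from polyadenylated RNA of skin taken up in TRIzol and made into libraries with the VAHTS Universal V6 kit, per the labels' protocols. The submitters' processing notes name fastp, HISAT2, HTSeq and the build GRCm39. Versions, strand setting and the treatment of shared reads are not given in the sources used here. FPKM is scaled within each library, so a change in a few abundant genes shifts all others.

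Genes with at least 1 FPKM in at least 4 of 24 libraries were kept (13039; 5853 removed). limma 3.58.1 in R 4.3.3 was fitted to log2(FPKM + 1), the pseudocount being 1, with 1 mean for each of 6 groups over all 24 libraries, a trend in the variance and robust moderation. Of 11 comparisons, each was adjusted over all genes by Benjamini-Hochberg, and an adjusted p under 0.05 was a call. Genes counted at an unadjusted p under 0.05 or as without overlap were not set against the share over all genes. The same holds for counts under alternative settings or without 1 library, unless the count over all genes is printed beside them. Differences, standard errors and 95% intervals in the text are from this fit. Its test on simulated data used independent genes with the same spread in all groups. That test therefore does not bear on groups of unequal spread. No sample was dropped or imputed.

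Low FPKM values are whole multiples of what 1 read is worth for 18715 of 18715 genes above 0 (100%, tolerance 0.02 of a read). The recovered reads were tested with voom as an alternative. Genes were named by a rule: those called in model against control or treatment against model with each mouse's value, 9 regulators and leading enzymes in any case, and up to 5 called genes with the smallest p elsewhere. The genes and lists were chosen with earlier results of these data known. The labels give separate mice, and the 4 libraries of a group are its replicates. Some genes of these lists are not reported here.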

Additional observations from a re-analysis of the deposited data

Results flagged for a closer look

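In 198 groups of 4 mice, 1 per gene and group, 8 had a mouse whose gap to its nearest neighbour passed Dixon's 95% limit, where chance gives about 1 group in 20. Acat2 (18 FPKM) and Mbtps1 (23.4 FPKM) were lowest in model replicate 3 of day 15, Abcg1 was lowest in model replicate 2 (7.68 FPKM) and Cyp51 in treatment replicate 2 of day 15 (34.8 FPKM). At day 10 Scap was lowest in model replicate 1 (11.6 FPKM), Mbtps1 highest in model replicate 4 (35.1 FPKM), Mbtps2 lowest in treatment replicate 3 (5.46 FPKM) and Abca1 highest in treatment replicate 4 (32.8 FPKM).

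The treatment-model difference of Fdps changed between the days by 0.59 on the log2 scale (limma interaction, SE 0.11, adjusted p = 0.0391), with no overlap between model and treatment mice at day 15.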

How the results depend on the processing

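Counts of called genes among the 33 are given by comparison, as model against control at day 10 (2 in the results above) and day 15 (6), treatment against model at day 10 (0) and day 15 (8), treatment against control at day 10 (4) and day 15 (0), day 15 against day 10 in control (6), model (18) and treatment skin (5), and the change of the model-control (0) and treatment-model (1) differences. A pseudocount of 0.1 and voom on the recovered reads left all 11 counts within 1.5 times. The other settings moved these, and the share of all genes called under each is not given here. The counts therefore do not show whether the 33 genes moved apart from other genes. Array weights gave 10 and 11 for model against control at day 10 and day 15, 1 for treatment against model at day 10, 14 and 7 for treatment against control, 19 and 11 for the days in control and treatment skin, and 1 and 2 for the changes. A common total per library gave 1 and 3 for model against control, 2 for treatment against control at day 10, 9 for the days in treatment skin and 0 for the change of treatment against model. The fit of only the groups compared gave 2 for model against control and 0 for treatment against model at day 15, 11 for treatment against control at day 10, 12, 0 and 3 for the days, and 0 for the change. A mean FPKM of at least 5, which left 31 of the genes, gave 3 for the days in control skin and 0 for the change. Median-of-ratios scaling gave 7 for the days in model skin, and no filter on low values 2 for model against control at day 15. The planned fit without libraries of high kidney sum drops all control and model mice of day 10, and gave 1 for model against control at day 15 and 3 for the days in treatment skin.

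The last 2 settings were chosen after seeing the data. Leaving out the libraries with a Y-linked sum under 35 FPKM leaves 1 treatment mouse at day 15, which is assumed to vary like the other groups. It gave 5 and 11 for model against control, and its counts for comparisons with that mouse are not given. Leaving out the 3 libraries of lowest array weight (model replicates 2 and 3 and treatment replicate 3 of day 15) gave 8 and 1 for model against control, 5 for treatment against model at day 15, 13 and 10 for treatment against control, 16, 3 and 12 for the days, and 0 for the change. The planned limit of 1 FPKM on the Y-linked sum removed no library and was not run. The cause of these moves was not tested.

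Without 1 library at a time the counts ranged from 0 to 4 and from 1 to 12 for model against control at day 10 and day 15, from 0 to 0 and from 6 to 10 for treatment against model, from 0 to 3 and from 0 to 8 for treatment against control, from 0 to 8, from 6 to 21 and from 1 to 8 for the days in control, model and treatment skin, and from 0 to 0 and from 0 to 1 for the changes. The share of all genes called in these fits is not given here. Of the values of single named genes, 660 kept their direction and call, 314 lost the call and 0 reversed.

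The replicate numbers do not pair the mice, which are 24 separate animals, and correlations between mice of the same number ran from -0.631 to 0.5094. With a replicate block the counts were 0 for treatment against control at day 10, 1 and 11 for the days in control and model skin and 0 for the change of treatment against model, and within 1.5 times elsewhere. The standard errors given rest on 1 spread per gene shared by all 6 groups of 4 mice. They can be too small for groups that spread more, and treatment skin of day 15 was such a group for some genes. Insig1, for example, ran from 34.6 to 70.2 FPKM there and from 64.2 to 68.9 in control skin of day 15. Idi2 had as few as 6 reads in a library, so its lowest levels rest on few reads.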
